A study of Mus musculus with 31 samples.

Results

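The genes of 8 protein kinase C isoforms, *Prkca*, *Prkcb*, *Prkcd*, *Prkce*, *Prkch*, *Prkci*, *Prkcq* and *Prkcz*, and the sphingosine kinase gene *Sphk1* were followed in parental and glucocorticoid receptor knockout (GR KO) melanoma, in tumors and in culture, with and without glucocorticoid (GC) treatment. These 9 of the 39179 genes counted were chosen by their counts in these libraries, because *Prkcb* was lower and *Sphk1* higher with GC in cultured parental cells. For this reason the values of parental cells with GC, and those of *Prkcb* and *Sphk1* against parental cells with DMSO, are given as a description without a test.

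Protein kinase C enzymes are serine/threonine kinases that act downstream of phospholipase C, which releases the membrane lipid diacylglycerol and raises intracellular calcium. *Prkca* and *Prkcb* encode the isoforms α and β, which answer to calcium and diacylglycerol, whereas the isoforms δ, ε, η and θ, encoded by *Prkcd*, *Prkce*, *Prkch* and *Prkcq*, answer to diacylglycerol without calcium. The atypical isoforms ι and ζ, encoded by *Prkci* and *Prkcz*, answer to neither and work in cell polarity complexes. Phorbol esters, which activate the diacylglycerol-responsive isoforms, are a classical additive to melanocyte cultures, and the isoforms β and θ are best known from B and T cell receptor signaling. Sphingosine kinase 1, the product of *Sphk1*, phosphorylates sphingosine to sphingosine 1-phosphate, a lipid that is exported and acts on G protein-coupled receptors of neighboring cells.

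The parental melanoma line goes back to C57BL/6 mice with the alleles Nras+LSL-G12D;Tyr::CreERT2+/o, in which the tyrosinase promoter drives an inducible Cre, and GR KO cells were grown from single clones of that line after CRISPR/Cas9 editing of *Nr3c1*. In the library names all GR KO cultures carry a single line label, so that effects of clone and of genotype cannot be told apart there. Wild-type C57BL/6 mice, which keep their own *Nr3c1*, carried intradermal tumors, and whole tumors were taken from 4 groups of 5 mice: parental or GR KO tumors with control treatment or with clobetasol propionate 0.05% ointment, a potent GC, given 3 times per week. Cultures comprised parental cells with DMSO (3 cultures) or clobetasol propionate (2 cultures) and GR KO cells with DMSO (3 cultures) or clobetasol propionate (3 cultures). The dose in culture is 10 µM in the treatment label and 1 µM in the library names. Ages of the mice are not given in the sources used here, and nothing in them says that the cultures were grown separately, so that p-values in culture measure the spread between these samples, which may be technical.

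RNA was sequenced from 3′ ends, with 15528066 to 26386770 counts in a tumor and 14441166 to 22463188 in a culture. No replicates were alike within sampling noise (chi-square per gene of 8.26 to 411, against about 1 for repeated draws from the same library). GR KO control tumor 4 stood apart from its group, with values of 234 to 411 in its 4 pairs against 68.8 to 146 in the group's other pairs. GC-treated parental tumors 2 and 4 also differed from the other 3 of their group (121 to 214, against 28.2 to 31.6 among those 3), as did parental DMSO culture 2 (65.4 and 77.3, against 8.26 for the other pair). GC-treated GR KO tumors 2 and 4 likewise differed from tumors 1, 3 and 5 (91.7 to 203, against 44.8 to 52.4 among those 3). GR KO culture 1 with GC had 69.9 and 119, against 30.3 for the other pair. Values without these libraries are given beside the results they moved, or with the changes of sign listed at the end. Levels are counts scaled to library size (CPM) with edgeR's TMM factors within tumors or within cultures, and 3 counts, taken as the floor, correspond to 0.112 to 0.220 CPM. This floor covers counting error only. A gene was tested where it reached 0.5 CPM in at least 3 samples, which held for all 9 genes in tumors and for 6 in cultures (all but *Prkch*, *Prkcq* and *Prkcz*). It was called where edgeR's adjusted p, taken over all 15919 genes tested in tumors or 12525 in cultures, was under 0.05 and the linear fold change at least 1.5.

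*Nr3c1* (ENSMUSG00000024431, chr18:39410545-39519421, minus strand, GRCm38) encodes the GC receptor. Parental control tumors held 63.4, 57.1, 44.9, 55.6 and 52.2 CPM, and GR KO control tumors held 20.7, 27.3, 31.4, 31.8 and 23.5 CPM. The genotypes did not overlap, and the log2 difference was -1.02 (edgeR's adjusted p = 0.0313). The call was lost without any 1 of these tumors other than GR KO tumor 3 or 4 (8 of 10 fits, adjusted p from 0.0524 to 0.0860), and without GR KO tumor 4 the difference was -1.09 (adjusted p = 0.0144). DMSO cultures held 33.2, 30.0 and 35.6 CPM when parental and 24.8, 21.0 and 16.4 CPM when GR KO, again without overlap (log2 difference -0.67, edgeR's adjusted p = 0.0840, and 0.0390 by DESeq2). GC-treated tumors of the 2 genotypes overlapped (log2 difference -0.02, adjusted p = 0.981). The position of the edit against the counted 3′ ends was not examined, so these levels do not check the edit.

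Cell type markers differed widely between tumors and cultures. The summed CPM of 8 macrophage and monocyte markers, led by *C1qa*, averaged between 5067 and 7365 in the 4 tumor groups and between 1.84 and 3.10 in the 4 culture groups. The 8 T and NK cell markers, led by *Cd2*, summed to 168 in parental and 257 in GR KO control tumors and to 127 and 106 with GC, and to at most 0.171 CPM in any culture. Keratinocyte (*Krt14*), striated muscle (*Acta1*), neutrophil (*S100a8*), endothelial (*Kdr*) and B cell (*Cd79b*) markers were likewise present in tumors, with group sums of 1017 to 2498, 272 to 423, 19.4 to 536, 30.8 to 96.0 and 3.92 to 8.49 CPM. Of the 7 melanocyte markers, *Tyr* had no count in any library, and *Sox10*, *Dct* and *Mlana* had none in any culture. The melanocyte sum, led by *Mitf*, averaged 33.1 to 46.0 CPM in tumor groups and 4.04 to 10.7 CPM in culture groups. These 4 defining pigment cell markers were thus not detected in the cultures, and the label melanoma comes from the origin of the line. Of the B cell markers, *Cd79a* and *Pax5* were at or under 3 counts in every tumor. In whole tumors, fewer cells of a type and less RNA per cell cannot be told apart.

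The calcium-dependent isoforms had unlike profiles over the 8 groups. *Prkcb* (ENSMUSG00000052889, chr7:122288751-122634402, plus strand) stood at 113 ± 14.8 and 106 ± 6.995 CPM (SD, n = 5) in parental tumors with control and GC treatment and at 98.1 ± 18.7 and 84.0 ± 12.5 CPM (SD, n = 5) in GR KO tumors. Cultures followed after a gap, with 9.52 ± 0.620 CPM (SD, n = 3) in parental cells with DMSO, 6.21 ± 1.41 and 5.29 ± 1.27 CPM (SD, n = 3) in GR KO cells with GC and DMSO, and 1.05 ± 0.0773 CPM (SD, n = 2) in parental cells with GC. Neighboring tumor groups did not differ beyond their spread (the sum of both SDs) and neither did the GR KO cultures, while the gap between tumors and GR KO cultures exceeded it. Steps to or from the parental cultures, which chose the gene, are not judged. *Prkca* (ENSMUSG00000050965, chr11:107933387-108343928, minus strand) ranged from 76.2 ± 13.8 CPM (SD, n = 5) in GR KO control tumors to 42.3 ± 1.18 CPM (SD, n = 2) in parental cells with GC, with cultures and tumors interleaved. For *Prkca*, no step among the groups other than parental cells with GC, down to 50.2 ± 6.50 CPM (SD, n = 5) in GC-treated GR KO tumors, exceeded the spread.

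Of the isoforms that answer to diacylglycerol without calcium, *Prkcd* (chr14:30595354-30626210, minus strand) stood at 90.0 to 116 CPM in tumor groups and 14.87 to 24.1 CPM in culture groups. Its step from tumors to cultures exceeded the spread. *Prkce* (chr17:86167785-86657919, plus strand) lay between 30.6 and 14.6 CPM, and outside parental cells with GC no step exceeded the spread. *Prkch* (chr12:73584796-73778185, plus strand), the isoform η of epithelia, stood at 14.4 to 16.5 CPM in tumor groups and had 1 count in all 11 cultures together. *Prkcq* (chr2:11172108-11301222, plus strand), the T cell isoform θ, stood at 1.67 to 4.57 CPM in tumor groups and had no count in any culture, which allows up to the floor of 0.136 to 0.207 CPM in a culture.

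The atypical isoforms were scarce and irregular. *Prkci* (chr3:30995747-31052959, plus strand) averaged 1.24 to 9.45 CPM, outside parental cells with GC no step exceeded the spread, and 1 library dominated several groups: 18.2 CPM against 5.51 and 4.47 in GR KO cells with DMSO, 17.6 against 4.25 and 2.08 in GR KO cells with GC, and 16.1 against 2.76 in parental cells with GC. *Prkcz* (chr4:155260129-155361361, minus strand) averaged 0.397 to 3.39 CPM in tumor groups and had 3 counts in all cultures, all in 1 GR KO culture with DMSO. *Sphk1* (ENSMUSG00000061878, chr11:116530925-116536674, plus strand) was highest in parental cells with GC at 48.4 ± 2.70 CPM (SD, n = 2), followed by 20.2 ± 6.66 CPM (SD, n = 5) in GC-treated parental tumors. The first of these groups chose the gene and its step to the next is not judged. Among the tumors and the GR KO cultures, down to 8.99 ± 4.65 CPM (SD, n = 5) in GR KO control tumors, no step exceeded the spread. No strand option is named for the counting, default settings are stated where none is named, and featureCounts ignores strand by default, so that reads from genes annotated on the other strand within *Prkca*, *Prkcb*, *Prkce*, *Prkcq*, *Prkcz* and *Sphk1* cannot be told apart from theirs.

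**Figure D1:**
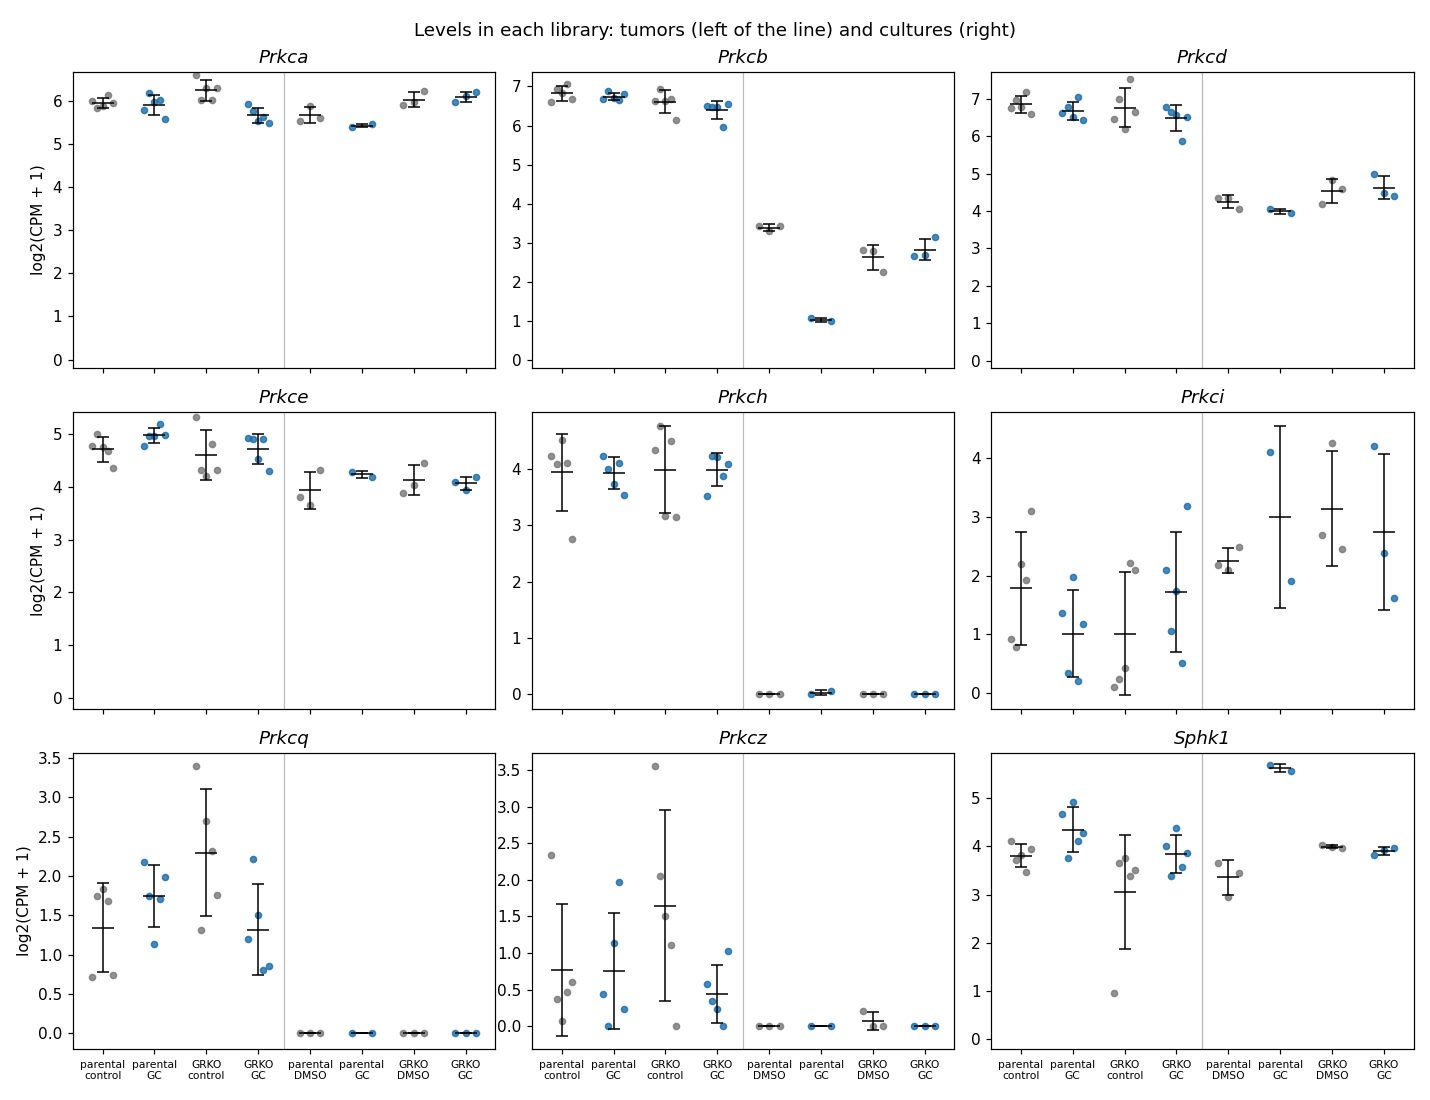
Levels of the 9 genes as log2(CPM + 1) (vertical axis) in the 8 groups (horizontal axis), with 1 point per library and bars for mean ± SD, tumors left of the line and cultures right of it. *Prkcb* and *Prkcd* sit higher in tumors than in cultures, *Prkch* and *Prkcq* lie at or near 0 in cultures, and *Sphk1* is highest in parental cells with GC, at 50.3 and 46.5 CPM.

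The contrast by which *Prkcb* and *Sphk1* were selected is described first. *Prkcb* stood at 9.89, 8.81 and 9.87 CPM in parental cells with DMSO and at 1.10 and 0.994 CPM with GC. *Sphk1* stood at 11.6, 6.77 and 9.99 CPM with DMSO and at 50.3 and 46.5 CPM with GC. The cultures did not overlap for either gene. Fitted log2 fold changes were -3.18 (standard error 0.34) for *Prkcb* and 2.35 (standard error 0.21) for *Sphk1*. Over all genes 110 (0.878%) of 12525 passed the call rule in this contrast (31 or 36 without GC culture 1 or 2, and 63 or 61 without DMSO culture 1 or 3), from which nothing is read about the chosen genes. Values of the other tested isoforms were -0.27 for *Prkca*, -0.28 for *Prkcd*, 0.29 for *Prkce* and 1.30 for *Prkci*, the last resting on the culture at 16.1 CPM (-0.46 without it). *Prkca* (45.9, 58.6 and 48.0 CPM with DMSO, 41.5 and 43.1 CPM with GC) did not overlap either. Nor did *Prkcd* (19.45, 19.34 and 15.51 CPM with DMSO, 15.45 and 14.28 CPM with GC), while *Prkce* and *Prkci* overlapped. The *Prkcd* separation was narrow and depended on the scaling. With TMM factors taken over all 31 libraries, GC culture 1 lay above DMSO culture 3 (15.87 against 15.80 CPM), and the groups overlapped. Endothelial marker sums were 1.82, 2.03 and 2.12 CPM with DMSO and 4.76 and 3.57 CPM with GC, and striated muscle sums 1.95, 4.62 and 2.17 CPM and 1.86 and 1.72 CPM, both without overlap, and their part was not tested. Neutrophil sums did not overlap either, but were at or under the floor throughout. No test of the 9 genes is reported for this contrast.

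To show the start regions of both genes, promoter windows of RefSeq for GRCm38.p6 (300 bases around a transcript start) were searched on both strands for AGAACA, the short site of a single GC receptor molecule, TGANTCA, the letters bound by AP-1, a factor family that phorbol esters activate through protein kinase C, and GGGCGG, the letters bound by Sp1. Of the 9 genes 7 had a window, 14 windows in all, and *Prkce* and *Prkch* did not. The *Prkcb* window (chr7:122288875-122289174, plus strand) held AGAACA at bases 45 to 50 and GGGCGG at bases 163 to 168, in capitals here:
Prkcb: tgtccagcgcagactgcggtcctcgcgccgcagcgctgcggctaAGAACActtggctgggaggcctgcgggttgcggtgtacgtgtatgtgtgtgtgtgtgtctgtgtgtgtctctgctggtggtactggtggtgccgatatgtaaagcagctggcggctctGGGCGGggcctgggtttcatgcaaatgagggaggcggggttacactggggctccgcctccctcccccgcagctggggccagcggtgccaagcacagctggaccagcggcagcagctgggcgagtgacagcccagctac
*Sphk1* had 5 windows, and its first (chr11:116530850-116531149, plus strand) held none of the 3 motifs, while window 3 (chr11:116531661-116531960, plus strand) held TGANTCA at bases 127 to 133, in capitals here:
Sphk1 window 1: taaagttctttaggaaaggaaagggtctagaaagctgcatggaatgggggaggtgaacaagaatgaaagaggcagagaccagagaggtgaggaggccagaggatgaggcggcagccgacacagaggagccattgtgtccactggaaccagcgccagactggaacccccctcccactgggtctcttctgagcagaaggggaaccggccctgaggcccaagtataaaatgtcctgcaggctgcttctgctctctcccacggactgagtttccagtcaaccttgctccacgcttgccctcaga
Sphk1 window 3: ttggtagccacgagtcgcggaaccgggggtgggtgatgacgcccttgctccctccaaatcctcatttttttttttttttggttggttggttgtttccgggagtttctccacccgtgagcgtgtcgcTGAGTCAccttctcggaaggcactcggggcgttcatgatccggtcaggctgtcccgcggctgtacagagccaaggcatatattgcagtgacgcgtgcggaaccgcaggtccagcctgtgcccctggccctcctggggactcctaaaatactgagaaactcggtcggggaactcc
The same match fell within the second *Sphk1* window, which overlaps window 3. Of 32851 promoters of this length, 19.0% held AGAACA, 7.81% TGANTCA and 35.7% GGGCGG. *Prkcd* held AGAACA in 1 of its 2 windows, GGGCGG occurred in a window of *Prkca*, *Prkcd*, *Prkci*, *Prkcq* and *Prkcz*, and TGANTCA occurred in none of the isoforms' windows. A match is a description of letters, and nothing was drawn from it about a factor.

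To ask whether these genes respond to GC without the receptor, GR KO cells with GC were compared with GR KO cells with DMSO. *Prkcb* stood at 6.08, 5.97 and 3.82 CPM with DMSO and at 5.31, 5.48 and 7.83 CPM with GC, and *Sphk1* at 15.4, 14.8 and 14.8 CPM with DMSO and at 13.1, 14.3 and 14.7 CPM with GC. The *Prkcb* cultures overlapped, and the 3 *Sphk1* cultures with GC lay slightly below those with DMSO. Log2 fold changes were 0.23 for *Prkcb* (95% interval -0.33 to 0.78, adjusted p = 0.976) and -0.10 for *Sphk1* (95% interval -0.50 to 0.31, adjusted p = 0.976). edgeR called 0 of the 6 genes tested, with 0 at an unadjusted p under 0.05 and 0 by DESeq2, and 0 (0%) of all 12525 genes, with 237 at an unadjusted p under 0.05 and 0 by DESeq2. The median log2 fold change was -0.01 for the 6 genes and 0.02 for all genes. The GC effect in parental cells minus that in GR KO cells was -3.41 for *Prkcb* and 2.45 for *Sphk1* on the log2 scale, values that include the choosing contrast and were not tested. Melanocyte marker sums were 4.78, 3.10 and 4.25 CPM with DMSO and 5.14, 5.34 and 5.68 CPM with GC, without overlap, and *Mitf*, the 1 of 7 tested, had a log2 fold change of 0.41 (adjusted p = 0.976). Their part was not tested.

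Between GR KO and parental cells in DMSO, edgeR called none of *Prkca*, *Prkcd*, *Prkce* and *Prkci*. The parental DMSO cultures are also an arm of the contrast by which *Prkcb* and *Sphk1* were selected, so that these genes are described here without a test. By the values given above the genotypes did not overlap, with *Prkcb* lower in GR KO cells (log2 difference -0.85) and *Sphk1* higher (0.66). *Prkca* held 45.9, 58.6 and 48.0 CPM in parental and 59.0, 61.8 and 74.2 CPM in GR KO cultures, without overlap (log2 difference 0.35, edgeR's adjusted p = 0.145, and 0.48 without parental culture 2, adjusted p = 0.0672). *Prkcd* (0.31), *Prkce* (0.20) and *Prkci* (1.30) overlapped, and the *Prkci* value became 0.39 without GR KO culture 2, the culture at 18.2 CPM. At an unadjusted p under 0.05 were 1 of these 4 genes and 3037 of all 12525 genes. Of these 4 genes edgeR called 0, with 0 by DESeq2, against 1030 (8.22%) of all genes. The latter count was 682 without parental culture 1, and 647 and 594 without GR KO cultures 1 and 2. Melanocyte markers summed to 9.24, 10.0 and 11.9 CPM in parental and to 4.78, 3.10 and 4.25 CPM in GR KO cultures, without overlap, and 1 of 7, *Mitf*, was lower (-1.36, adjusted p = 0.00380), while *Sox10*, *Dct*, *Tyr*, *Tyrp1* and *Mlana* were at 0. Striated muscle markers did not overlap either, at 1.95, 4.62 and 2.17 CPM in parental and 1.77, 0.668 and 0.485 CPM in GR KO cultures. The 1 of 4 tested, *Acta1*, the most abundant, had a log2 difference of -1.49 (adjusted p = 0.133) with overlap. Sums of the other 6 marker lists overlapped. Their part in these differences was not tested.

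In parental tumors, GC treatment left the kinase C genes without a call. *Sphk1* stood at 16.2, 12.2, 13.1, 10.0 and 14.4 CPM with control treatment and at 24.7, 12.6, 29.2, 16.3 and 18.4 CPM with GC. Of the GC-treated tumors 4 of 5 were above every control tumor and tumor 2 lay within the control range. Tumor 4 passed the highest control by 16.251 against 16.2402 CPM, and lay below it with TMM factors taken over all 31 libraries (15.9 against 16.1 CPM). The difference was not called (log2 fold change 0.62, standard error 0.39, edgeR's adjusted p = 0.4997, and p = 0.0556 by a two-sided exact permutation test). *Prkcb* stood at 96.5, 121, 114, 133 and 102 CPM with control treatment and at 102, 117, 103, 100 and 110 CPM with GC. These groups overlapped throughout, with a log2 fold change of -0.09 (95% interval -0.44 to 0.25, adjusted p = 0.853). The other 7 isoforms had log2 fold changes between -1.33 (*Prkci*) and 0.54 (*Prkcq*) and overlapping groups. The *Prkci* value was -0.68 without control tumor 5 and -1.93 without GC-treated tumor 3, and that of *Prkcz*, -0.18, was 1.56 without control tumor 1 and -1.26 without GC-treated tumor 4. edgeR called 0 of 9, with 0 at an unadjusted p under 0.05 and 0 by DESeq2, against 124 (0.779%) of all genes, and the median log2 fold change was -0.09 for the 9 genes and 0.00 for all genes. Over all genes the count was 60, 76 and 62 without control tumors 3, 4 and 5, and 73, 64 and 79 without GC-treated tumors 2, 4 and 5.

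In GR KO tumors, *Prkca* fell with GC treatment. It stood at 97.5, 63.8, 77.9, 63.8 and 78.1 CPM in control tumors and at 59.8, 53.4, 45.4, 48.7 and 43.9 CPM in GC-treated tumors. All 5 treated tumors lay below all 5 controls, with a log2 fold change of -0.60 (standard error 0.17, edgeR's adjusted p = 0.0319), and a two-sided exact permutation test gave p = 0.00794, the smallest possible with these group sizes. The call lay near the threshold. It was lost without GR KO control tumor 1 (-0.50, adjusted p = 0.0988), 3 (adjusted p = 0.0510) or 5 (adjusted p = 0.0512), without GC-treated GR KO tumor 3 (-0.56, adjusted p = 0.0941) or 5 (-0.55, adjusted p = 0.0917), with no low-count filter (adjusted p = 0.0524), with at least 10 counts in every sample (-0.58, under the fold limit), at a fold of 2 and with these groups fitted alone (adjusted p = 0.0888). Without GR KO control tumor 4, which stood apart, it was kept (-0.65, adjusted p = 0.0149). DESeq2 gave an adjusted p of 0.00481.

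The other genes were not called in GR KO tumors. *Prkcq* stood at 9.53, 1.49, 5.47, 3.98 and 2.40 CPM with control treatment and at 1.29, 3.67, 1.84, 0.742 and 0.817 CPM with GC, and *Prkcz* at 10.8, 3.17, 1.84, 1.16 and 0 CPM and at 0.490, 0.270, 0.180, 0 and 1.04 CPM. Both overlapped, with GR KO control tumor 1 the highest, and had log2 fold changes of -1.45 (adjusted p = 0.132) and -3.06 (adjusted p = 0.151). The *Prkcz* value was -1.93 without control tumor 1 (adjusted p = 0.423) and -3.79 without GC-treated tumor 5. *Sphk1* stood at 0.953, 11.6, 12.6, 9.46 and 10.3 CPM with control treatment and at 15.2, 9.43, 19.96, 10.9 and 13.5 CPM with GC. Its groups overlapped, and the log2 fold change of 0.62 (adjusted p = 0.352) became 0.33 without control tumor 1, the tumor at 0.953 CPM. *Prkcb*, *Prkcd*, *Prkce*, *Prkch* and *Prkci* had values between -0.34 (*Prkcd*) and 1.00 (*Prkci*). *Prkcd* reached 185 CPM in control tumor 4 against 72.0 to 126 CPM in the other controls, and its value was -0.08 without that tumor. The *Prkci* value was 1.66 without control tumor 4 and 0.24 without GC-treated tumor 5. At an unadjusted p under 0.05 were 3 of 9 and 3893 of all 15919 genes. edgeR called 1 of 9, with 1 by DESeq2, against 1022 (6.42%) of all genes. The medians were -0.22 for the 9 genes and 0.05 for all genes. The count of all genes called depended on single tumors, with 2411 without control tumor 4 and 429 and 488 without control tumors 1 and 2. It was 546, 303 and 393 without GC-treated tumors 1, 3 and 5.

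Markers of other cells moved in the same tumors. T and NK cell markers summed to 285, 264, 196, 364 and 174 CPM in GR KO control tumors and to 101, 152, 119, 77.9 and 79.1 CPM with GC, without overlap. Of these 8 markers 3 fell, *Cd2* (log2 fold change -1.94), *Lck* (-1.56) and *Cd3d* (-1.26), and none had a group at 0. Endothelial markers summed to 102, 83.9, 105, 105 and 84.9 CPM with control treatment and to 51.9, 58.8, 49.5, 46.7 and 51.8 CPM with GC, also without overlap, and 1 of 5, the most abundant, *Kdr*, fell (-1.32). Keratinocyte markers summed to 2884, 3618, 2927, 1294 and 1767 CPM and to 700, 880, 1318, 1524 and 1365 CPM, with overlap, and of 5 *Krt14* fell (-1.42) while *Krt1* (1.85) and *Krt10* (2.13) rose. Striated muscle markers summed to 411, 381, 563, 491 and 267 CPM and to 252.5, 324, 322, 220 and 239 CPM, with overlap, and 1 of 4, *Myh4*, fell (-1.33). Macrophage and monocyte markers summed to 9168, 8061, 5899, 7037 and 6660 CPM and to 5475, 8209, 5115, 5272 and 4720 CPM, with overlap, and 1 of 8, *Mrc1*, rose (1.20). Neutrophil markers summed to 429.6, 786, 266, 178 and 1022 CPM and to 97.7, 49.8, 229, 201 and 136 CPM, with overlap, and edgeR called 0 of 5 (2 at an unadjusted p under 0.05, 0 by DESeq2). B cell markers summed to 11.7, 5.44, 8.95, 9.38 and 7.01 CPM and to 1.78, 7.22, 3.24, 2.49 and 4.86 CPM, with overlap. The 1 of 5 tested, *Cd79b*, had a log2 fold change of -1.13 (edgeR's adjusted p = 0.0868) and was called by DESeq2. Calls of *Cd2*, *Lck*, *Kdr* and *Krt1* were kept without any 1 of these tumors. *Cd3d* was lost without control tumor 1 or 2 or GC-treated tumor 1, 3 or 5 (adjusted p from 0.0577 to 0.0813), *Mrc1* without control tumor 1, 2 or 3 or GC-treated tumor 1, 3 or 5 (0.0527 to 0.0873), *Krt14* without control tumor 1, 2 or 3 or GC-treated tumor 1, 2, 3 or 5 (0.0550 to 0.0882) and *Myh4* without control tumor 1 or GC-treated tumor 3 or 5 (0.0613 to 0.0840). *Krt10* was lost without GC-treated tumor 5 (1.54, adjusted p = 0.0636) and stood at 3.06 without control tumor 4. Calls were gained by *Itgam* without control tumor 4 (1.46, adjusted p = 0.0208) and by *Cd79b* (-1.45, adjusted p = 0.0389) and *C1qa* (-0.97, adjusted p = 0.0481) without GC-treated tumor 2. The part of these cells in the *Prkca* result was not tested.

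Whether GC acted differently in parental and GR KO tumors was tested as the difference of their log2 fold changes. *Prkca* (0.56, standard error 0.23, adjusted p = 0.190) and *Prkcq* (1.99, standard error 0.83, adjusted p = 0.187) had the 2 unadjusted p under 0.05, and neither was called. Of all 15919 genes, 3192 had such a p. The difference was 0.13 for *Prkcb* (95% interval -0.35 to 0.62) and 0.00 for *Sphk1* (95% interval -1.24 to 1.25), an interval that holds sizeable differences in either direction. edgeR and DESeq2 both called 0 of 9, against 31 (0.195%) of all genes by edgeR and 784 by DESeq2. The count of 31 became 1284 without GR KO control tumor 4, where the *Prkca* difference was 0.61 (adjusted p = 0.0957). It was 67 and 73 without GC-treated GR KO tumor 2 and GC-treated parental tumor 3. It lay between 0 and 10 without parental control tumor 1, 3, 4 or 5, GC-treated parental tumor 2, 4 or 5, GR KO control tumor 1 or 2, or GC-treated GR KO tumor 1, 3 or 5. The median difference was 0.16 for the 9 genes and -0.04 for all genes.

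**Figure D2:**
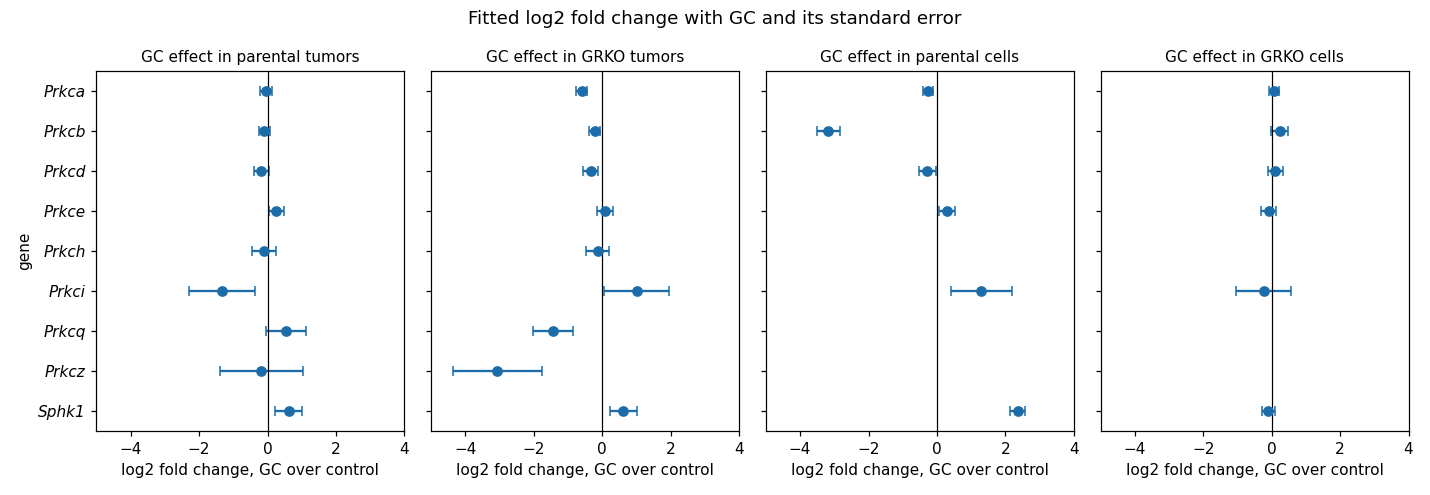
Fitted log2 fold change with GC (horizontal axis) of each gene (vertical axis) with its standard error as the bar, in parental tumors, GR KO tumors, parental cells and GR KO cells. In parental cells *Prkcb* lies at -3.18 and *Sphk1* at 2.35, the values that chose them, and in GR KO cells they lie at 0.23 and -0.10.

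Between genotypes, *Prkcb* was lower in every GC-treated GR KO tumor (88.9, 87.2, 88.5, 62.0 and 93.4 CPM) than in every GC-treated parental tumor (102, 117, 103, 100 and 110 CPM). The log2 difference of -0.34 (standard error 0.17) did not pass edgeR's test over all genes (adjusted p = 0.443), although the two-sided exact permutation test of this gene alone gave its smallest possible p of 0.00794. Tumor 4 was the lowest, and without it the difference was -0.25. Endothelial and neutrophil marker sums of the GC-treated tumors did not overlap between genotypes either. Endothelial sums were 18.6 to 36.4 CPM in parental and 46.7 to 58.8 CPM in GR KO tumors, and neutrophil sums were 10.1 to 38.76 CPM and 49.8 to 229 CPM. All 5 endothelial markers (median log2 difference 0.83) and all 5 neutrophil markers (median 2.07) had values above 0 and all 4 muscle markers values below 0 (median -0.62). edgeR called 0 of each of these lists, with 2, 3 and 2 at an unadjusted p under 0.05 and 0, 1 and 1 by DESeq2. The part of these cells in the *Prkcb* values was not tested. In control tumors the endothelial sums, 48.5 to 69.6 CPM in parental and 83.9 to 105 CPM in GR KO tumors, did not overlap either. In control tumors, *Prkca* had a log2 difference of 0.30 (adjusted p = 0.307, and p = 0.0397 by the exact permutation test) and *Prkcq* of 1.43 (adjusted p = 0.179), both with overlapping groups. Of the markers in control tumors, endothelial *Kdr* was higher (0.98, adjusted p = 0.0472) and keratinocyte *Krt1* lower (-1.21, adjusted p = 0.0422) in GR KO tumors, both without overlap. The *Kdr* call was lost without any 1 of these tumors other than GR KO tumor 4 (adjusted p from 0.0572 to 0.133), and that of *Krt1* without any other than GR KO tumor 4 or parental tumor 5 (0.0596 to 0.116). Without GR KO tumor 4, calls were gained by *Krt14* (1.37), *Krt10* (-2.28), *Itgam* (-1.51) and *C1qa* (1.01), and without parental tumor 5 by *Krt14* (1.79). The part of these cells was not tested. Of 36 exact tests made over the 9 genes, 3 gave a p under 0.05. In control tumors edgeR called 0 of 9, with 0 by DESeq2, against 358 (2.25%) of all genes. At an unadjusted p under 0.05 were 1 of 9 and 3180 of all 15919 genes. The medians were -0.03 for the 9 genes and -0.04 for all genes. In GC-treated tumors edgeR called 0 of 9, with 0 by DESeq2, against 101 (0.634%) of all genes. At an unadjusted p under 0.05 were 0 of 9 and 1816 of all genes. The medians were -0.25 for the 9 genes and 0.01 for all genes. The count of all genes called in control tumors was 1762 without GR KO control tumor 4 and 61 to 213 without any other 1 of these tumors. That in GC-treated tumors was 47 and 54 without parental tumors 2 and 4, and 52, 46 and 40 without GR KO tumors 1, 3 and 5. These comparisons share tumors with those of GC treatment.

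Control tumors were also compared with DMSO cultures of the same genotype. Here the experiment, the mixture of cells and the library batch cannot be told apart, and all 31 libraries were fitted together over 16273 genes. The parental DMSO cultures are an arm of the choosing contrast, so that *Prkcb* and *Sphk1* are described without a test in parental samples. *Prkcd* was higher in control tumors than in DMSO cultures by log2 differences of 2.64 (standard error 0.28) when parental and 2.32 (standard error 0.28) when GR KO, and *Prkcb* by 4.17 (standard error 0.23) when GR KO. In parental samples the *Prkcb* difference was 3.53. For both genes all of the tumors lay above all of the cultures. *Prkch*, *Prkcq* and *Prkcz* passed the low-count filter in tumors and not in cultures, so that the filter fixed their direction and no test of them is reported. *Prkch* and *Prkcq*, without a count in the DMSO cultures, were at least 81.2-fold and 8.88-fold higher in parental tumors and at least 105-fold and 29.0-fold higher in GR KO tumors, set against 3 counts per culture. *Prkcz* was at least 5.57-fold higher in parental tumors, a bound carried by parental control tumor 1 and at least 1.62-fold without it. In GR KO tumors *Prkcz* was 63.9-fold higher with a counting interval of 21.9 to 310, since GR KO cultures held 3 counts. This ratio was 29.3 without GR KO control tumor 1 (interval 10.0 to 142), 41.2 without GR KO DMSO culture 2 (interval 14.1 to 199.6), and at least 21.5-fold without DMSO culture 1, which held the 3 counts. *Prkce* was higher in parental tumors (0.77, adjusted p = 0.0123), though not without parental DMSO culture 1 (0.69, adjusted p = 0.0590) or 2 (0.63, adjusted p = 0.0816). It was also not called at a fold of 2. In GR KO samples *Prkce* was not called (0.51, adjusted p = 0.0797). It was called there without GR KO control tumor 2 or 3 (adjusted p = 0.0484 and 0.0398) or GR KO DMSO culture 3 (adjusted p = 0.0473), with DESeq2 (adjusted p = 0.0337), with DESeq2's size factors in edgeR (adjusted p = 0.0434) and with at least 10 counts in every sample (adjusted p = 0.0306), and over its alternatives the adjusted p lay between 0.0306 and 0.295.

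*Prkca* had log2 differences of 0.24 and 0.19 (adjusted p = 0.237 and 0.324) in parental and GR KO samples. *Sphk1* had a value of -0.77 in GR KO samples (adjusted p = 0.0967) and, as a description, 0.43 in parental samples. *Prkci* was lower in GR KO tumors than in GR KO cultures (-2.62, adjusted p = 0.0242), a call lost without GR KO DMSO culture 2 (-1.75, adjusted p = 0.180) and without GR KO control tumor 2 or 3 (adjusted p = 0.0530 and 0.0540), and it was -3.34 without GR KO control tumor 4 (adjusted p = 0.00868). For *Prkci* in parental samples the difference was -0.33 (adjusted p = 0.805). Of the 6 genes that passed the filter in tumors and also in cultures, edgeR called 2 higher in GR KO tumors (*Prkcb* and *Prkcd*) and 1 lower (*Prkci*), and in parental tumors 2 higher (*Prkcd* and *Prkce*) of the 4 other than *Prkcb* and *Sphk1*. Over all 12278 genes that passed both filters, 5283 (43.0%) and 6419 (52.3%) were called, and 7595 (46.7%) and 8917 (54.8%) of all 16273 genes fitted. With shares of this size over all genes, the counts are no result about these genes. In cultures the T and NK cell, neutrophil and B cell marker sums given above reached at most 0.171, 0.162 and 0.529 CPM, and the macrophage, striated muscle, endothelial and keratinocyte sums at most 4.00, 4.62, 4.76 and 5.35 CPM, well below the tumors and above the floor. Their part in these differences was not tested.

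The wider pathway was examined in 73 genes of 7 lists: other kinases of the family, phospholipase C, diacylglycerol kinases, regulators, anchors and substrates of protein kinase C, other diacylglycerol receptors, and the metabolism, transport and receptors of sphingosine 1-phosphate. Of these, 68 were tested in tumors and 52 in cultures. In parental tumors 1 of 68 was called with GC, where 0.779% of all genes were called. It was *Spns2*, the exporter of sphingosine 1-phosphate, which fell from 27.2 ± 15.8 to 6.98 ± 3.34 CPM (SD, n = 5). All treated tumors lay below all controls (log2 fold change -1.96, standard error 0.47, adjusted p = 0.0457). This call was lost without any 1 of these tumors other than control tumor 1 or 2 (8 of 10 fits, adjusted p from 0.0529 to 0.197) and with these groups fitted alone (adjusted p = 0.0659), and the difference from GR KO tumors was -2.26 (adjusted p = 0.0985, and called at -2.33 without GR KO control tumor 4, adjusted p = 0.0406). Endothelial markers summed to 67.1, 53.6, 48.5, 69.6 and 51.1 CPM in parental control tumors and to 36.4, 18.6, 28.2, 35.2 and 35.7 CPM with GC, without overlap, and edgeR called 0 of 5 of them (3 at an unadjusted p under 0.05, 1 by DESeq2), with *Kdr* called without control tumor 3 (-1.18, adjusted p = 0.0394). Neutrophil markers summed to 22.7, 67.5, 244, 32.9 and 1277 CPM and to 14.6, 10.1, 11.1, 22.6 and 38.76 CPM, with overlap, and 2 of 5, *S100a8* (-3.96) and *S100a9* (-5.03), fell. Without control tumor 5, the tumor at 1277 CPM, neither was called (-2.05 and -2.98, adjusted p = 0.316 and 0.0657). *S100a8* was also lost without control tumor 3 or GC-treated tumor 1, 2, 3 or 4 (adjusted p from 0.0783 to 0.134), and stood at -4.59 without GC-treated tumor 5. The part of these cells in the *Spns2* result was not tested. The median of the 68 genes was -0.01 and that of all genes 0.00.

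In GR KO tumors 3 of 68 pathway genes were called with GC, where 6.42% of all genes were called. *Pkn2*, a protein kinase C-related kinase, rose from 38.9 ± 10.2 to 74.2 ± 11.4 CPM (SD, n = 5) with a log2 fold change of 0.93 (adjusted p = 0.00672), and *Add3*, an adducin and substrate of the family, from 16.9 ± 5.10 to 32.3 ± 4.14 CPM (SD, n = 5) with 0.93 (adjusted p = 0.0136), both without overlap. *Add3* was not called with these groups fitted alone (adjusted p = 0.0571). *Sqstm1*, whose product p62 binds atypical isoforms, fell by 0.81 on the log2 scale (adjusted p = 0.0215), with overlap. None of the 3 was called at a fold of 2. All 3 calls were kept without GR KO control tumor 4 (0.95, 1.09 and -0.92, adjusted p = 0.00538, 0.00363 and 0.00552). Another 6 genes, named after their values were seen, were called without that tumor, *Plcd1* (2.30), *Dgka* (1.45), *Plpp1* (0.88) and *Sgpl1* (0.61) higher and *Pard6g* (-0.65) and *Plpp3* (adjusted p = 0.0152) lower with GC, so that the count was 9 of 68. In the same fit 2411 of all 15851 genes were called, a share no smaller, and nothing is read from the count. *Plcg2* was called without control tumor 2 (-0.91, adjusted p = 0.0301) or GC-treated tumor 2 (-0.86, adjusted p = 0.0475). The *Sqstm1* call was lost without GR KO control tumor 1 (-0.61, adjusted p = 0.0799) or 2 (adjusted p = 0.0527), without GC-treated GR KO tumor 3 (adjusted p = 0.0657) or 5 (adjusted p = 0.0682), and with these groups fitted alone (adjusted p = 0.0737). The marker sums of other cells given beside *Prkca* belong to the same tumors. The median of the 68 genes was -0.06 and that of all genes 0.05.

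In the remaining tumor comparisons edgeR called none of the 68 pathway genes. For the difference of GC effects it called 0, with 16 at an unadjusted p under 0.05 and 3 by DESeq2, for genotype in control tumors 0, with 11 and 5, and for genotype in GC-treated tumors 0, with 12 and 1. Of all 15919 genes, 3192, 3180 and 1816 had an unadjusted p under 0.05 by edgeR in these comparisons. The first and second of these counts of called pathway genes rested on GR KO control tumor 4. Without it, 5 genes were called for the difference, *Plcd1* (-3.28), *Spns2* (-2.33), *Marcks* (-1.31), *Sqstm1* (0.96) and *Pard3* (0.85), where 1284 of all 15851 genes were called. For genotype in control tumors 8 were called without it, *Plch2* (1.73), *Plpp3* (1.11), *Sqstm1* (0.82) and *Chn1* (0.63) higher and *Plcd1* (-2.67), *Dgka* (-1.53), *Add3* (-0.90) and *Pkn2* (-0.63) lower in GR KO tumors, where 1762 of all 15851 genes were called. These genes are named after their values were seen. Their shares were near those of all genes in the same fit, and nothing is read from them. Without any other 1 tumor both counts were 0. In GR KO cells with GC edgeR called 0 of 52, with 1 at an unadjusted p under 0.05 (237 of all 12525 genes) and 0 by DESeq2. Pathway genes were not tested in parental cells with GC, the choosing contrast, so that this count says nothing about a response there.

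Between GR KO and parental DMSO cultures, 6 of 52 pathway genes were called, 2 higher and 4 lower. Of all genes 1030 (8.22%) were called, 273 higher and 757 lower, so that lower calls outnumbered higher ones there too. In none of the 6 pathway genes did the cultures overlap. The phospholipases *Plce1* and *Plcb1*, which make diacylglycerol, were lower in GR KO cells by log2 differences of -2.10 (11.2 ± 1.82 against 2.59 ± 0.671 CPM, SD, n = 3, edgeR's adjusted p = 0.000702) and -0.96 (adjusted p = 0.0171), and so was *Dgka*, which converts diacylglycerol to phosphatidic acid (-1.06, adjusted p = 0.0164). *Plpp3*, a lipid phosphatase that acts on sphingosine 1-phosphate, stood at 135 ± 6.63 against 48.3 ± 7.88 CPM (SD, n = 3) (log2 difference -1.49, edgeR's adjusted p = 0.000210). *Prkd1*, a kinase activated by protein kinase C, was higher (1.02, adjusted p = 0.0240), as was *Cavin2*, a caveolar protein that binds the kinase (0.98, adjusted p = 0.00111). Calls of *Prkd1*, *Plcb1* and *Dgka* depended on single cultures: each was lost without GR KO culture 1 (adjusted p = 0.0738, 0.0518 and 0.0694) and without GR KO culture 2 (adjusted p = 0.0870, 0.0818 and 0.0795), *Plcb1* also without GR KO culture 3 (adjusted p = 0.0512) and *Prkd1* without parental culture 2 (adjusted p = 0.0513). *Prkd1* was also not called with these groups fitted alone (adjusted p = 0.0519), nor *Plcb1* and *Cavin2* at a fold of 2. *Add3* was called without parental culture 2 (0.67, adjusted p = 0.0105). The median of the 52 genes was 0.09 and that of all genes 0.01. Melanocyte and striated muscle marker sums, given above, did not overlap between these cultures, and their part was not tested. As a description without a test, parental cells with GC held 21.2 CPM of *Dgka* (10.2 with DMSO), 13.5 of *Prkd1* (5.87) and 699 of *Cavin2* (558). They held 65.0 CPM of *Plpp3* (135 with DMSO), 11.6 of *Plcb1* (17.5) and 10.9 of *Plce1* (11.2). Of these 6 genes *Plce1* overlapped and the others did not. The same DMSO cultures entered the comparison that named these genes.

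Between control tumors and DMSO cultures, 52 pathway genes passed the filter in both. Of these, 19 (36.5%) were called in parental samples, 11 of them higher in tumors, and 27 (51.9%) in GR KO samples, 17 of them higher, against 43.0% and 52.3% of all genes that passed both filters. The shares were thus near or below those of all genes. Another 16 pathway genes passed through the tumors alone, and the filter fixed their direction. Those without a count in the DMSO cultures included the phospholipase *Plcb2* (at least 92.5-fold and 121-fold higher in parental and GR KO tumors), the diacylglycerol-binding exchange factors *Rasgrp1* (at least 19.5-fold and 20.1-fold, the latter at least 12.6-fold without GR KO control tumor 1) and *Rasgrp4* (at least 33.0-fold and 42.6-fold), the ceramidase *Acer1* (at least 56.8-fold and 72.2-fold) and the sphingosine 1-phosphate receptor *S1pr4* (at least 17.4-fold and 23.7-fold). *S1pr1*, another of these receptors, was higher by log2 differences of 3.96 and 3.82 (4.61 without parental DMSO culture 3 and 4.59 without GR KO DMSO culture 1), *Plcg2* by 2.96 and 5.22, and the substrate *Marcks* by 1.77 and 1.43. The lipid phosphatase *Plpp2* was lower in tumors (-2.83 and -2.72), and so were *Add3* (-1.35 and -2.52) and *Cavin2* (-1.28 and -2.65). By list, parental and GR KO samples had 1 and 3 of 7 other kinases called, 1 and 3 of 8 phospholipases, 3 and 4 of 6 diacylglycerol kinases, 10 and 10 of 17 regulators and substrates, 1 and 0 of 2 diacylglycerol receptors, 2 and 6 of 9 metabolic enzymes, and 1 and 1 of 3 transporters and receptors. In parental samples the count of kinases was 2 without control tumor 2 or 4 or DMSO culture 1 or 2, that of phospholipases 2 and 3 without control tumors 2 and 4, that of metabolic enzymes 4 without control tumor 3, and that of transporters and receptors 2 without control tumor 1. In GR KO samples the count of diacylglycerol receptors was 1 without control tumor 4, and that of transporters and receptors 2 without control tumor 3. The median log2 differences of the 52 genes were 0.24 and 0.11, beside 0.02 and -0.08 for all genes that passed both filters. The markers of other cells that moved with this comparison are those given above, and their part was not tested.

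Genes with the profiles most like each member were sought over the 20 tumors, by Pearson correlation of log2(CPM + 1) with 15918 other genes, as a description. The tumors share groups and library depths with every gene, so no p is given. *Prkca* was most like *Dna2* (r = 0.89) and *Rpia* (r = 0.86), *Prkcb* like *Sostdc1* (r = 0.82) and *Letm2* (r = 0.78), and *Prkcd* like *Fam65b* (r = 0.88) and *Slamf8* (r = 0.80). *Sphk1* was most like *Itpr1* (r = 0.89) and *Lrrk2* (r = 0.88). The first genes for the rest were *Tmem14a* for *Prkce* (r = 0.81), *Zfp691* for *Prkch* (r = 0.85), *Ampd2* for *Prkci* (r = 0.93), *Coro2b* for *Prkcq* (r = 0.82) and *1700066B19Rik* for *Prkcz* (r = 0.84). None of the 9 genes was among the 5 most alike of another.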

How the data were processed

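QuantSeq 3′ libraries of 20 tumors and 11 cultures were quality checked with FastQC 0.11.7 and MultiQC 1.4, trimmed with Trim Galore 0.6.5, aligned to GRCm38 with STAR 2.6.1d and counted per gene of Ensembl release 75 with featureCounts by the authors, who deposited whole-number counts without normalization. Groups follow the deposited labels.

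Counts of each experiment were scaled by TMM and fitted over its 4 groups with edgeR 4.0.16 (quasi-likelihood test, R 4.3.3), and all 31 libraries were fitted over 8 groups for tumors against cultures. The p-values were adjusted by Benjamini-Hochberg over all genes tested. Exact permutation tests compared means of log2(CPM + 1). The pipeline was tested on simulated data. Alternatives were DESeq2 1.42.0, its size factors, the replicate number as a block, a fold of 2, a fit of only the groups compared, a pseudocount of 0.1 for the permutation tests, keeping all genes with a count, keeping genes with 10 counts or more throughout, and each sample left out. Counting only genes that passed the filter in tumors and also in cultures, leaving out libraries from folds against cultures with 3 or fewer counts, and counting pathway and marker calls without each sample, were added after seeing the data.

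The genes and lists were chosen with earlier results of these data known. Named were all 9 genes, *Nr3c1*, the called genes of each pathway list (at most 4 by p in a comparison) and the 5 most alike genes.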

Additional observations from a re-analysis of the deposited data

Results flagged for a closer look

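Of 72 groups of 5 tumors examined, 6 held a tumor far from the other 4, and chance gives about 1 in 20. GC-treated GR KO tumor 4 had 62.0 CPM of *Prkcb* (nearest 87.2). Parental control tumor 1 had 4.08 CPM of *Prkcz* (nearest 0.522). GR KO control tumor 1 had 0.953 CPM of *Sphk1* (nearest 9.46). The macrophage and monocyte marker sum was 8209 CPM in GC-treated GR KO tumor 2 (nearest 5475). In parental control tumor 5 the neutrophil marker sum was 1277 CPM (nearest 244) and the keratinocyte marker sum 2800 CPM (nearest 1257).

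The GC effect on *Sphk1* in cultures differed between genotypes by 2.45 on the log2 scale. Of this, 2.35 is the contrast in parental cells that chose the gene, so that the difference was not tested. In GR KO cells the log2 fold change was -0.10 (95% interval -0.50 to 0.31). All 3 GR KO GC cultures lay below all GR KO DMSO cultures, but by a narrow margin (14.71 against 14.75 CPM), and no opposite response is read from this.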

How the results depend on the processing

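Of the alternative values for single genes, 2504 kept their direction and their side of the threshold, 79 lost a call, 12 gained one, 6 moved beyond the spread and 60 changed sign. Of the counts of the 9 genes called, 145 stayed within 1.5 times and 16 did not. The cause was not tested. *Prkci* and *Prkcz* were at 3 counts or fewer in some tumors, which limits their precision, and with at least 10 counts in every sample they gave no value there, nor did *Prkch*, *Prkci*, *Prkcq* and *Prkcz* between tumors and cultures. The difference of GC effects has no fit of the compared groups alone. With 1 GC-treated parental culture left out, the lone culture is assumed to vary like the other groups.

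In GR KO tumors with GC, 0 of the 9 genes were called by edgeR with no low-count filter, with at least 10 counts in every sample, with a fold of 2 and with these groups alone, and between 0 and 1 without 1 sample. Between DMSO cultures 1 was called with DESeq2's size factors, 2 by DESeq2, and between 0 and 1 without 1 sample. These were *Sphk1* and *Prkcb*, which were chosen with the same parental cultures, so that nothing is read from them. Between tumors and cultures 6 of all 9 were called in either genotype, with 3 of them fixed by the low-count filter and, in parental samples, *Prkcb* chosen with the same cultures. There 3 were called with at least 10 counts in every sample, and 3 among genes that passed the filter in tumors and also in cultures, a restriction chosen after seeing the data. With at least 10 counts in every sample the difference of GC effects in tumors was -0.013 for *Sphk1*.

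Taken over all groups, replicate numbers did not pair the samples (mean correlation 0.0583 over 30 pairs of tumors and 0.0198 over 15 of cultures, with 16 and 7 over 0.1). Some pairs of groups stood above this mean. GC-treated parental and GR KO tumors had correlations of 0.389, 0.383, 0.0998, 0.296 and 0.258 for numbers 1 to 5. Parental and GR KO control tumors had 0.174, 0.121, 0.126, 0.272 and -0.0695. Parental cells with GC had 0.249 and 0.404 with parental cells with DMSO, the choosing contrast, for numbers 1 and 2. With GR KO cells with GC they had 0.620 and 0.237. Between GC-treated parental and GR KO tumors *Sphk1* overlapped and was not called. Its log2 difference was -0.55 (edgeR's adjusted p = 0.615, and p = 0.103 by the exact permutation test). By number, *Sphk1* was lower in every GC-treated GR KO tumor than in the parental tumor of the same number. No label pairs these tumors, and the order by number was not tested. With the block, 160 genes were called in that comparison, against 101. What these tumors shared was not tested. With the replicate number as a block, the GC effect in parental tumors was 0.80 for *Prkcz*, and the difference of GC effects was -0.055 for *Prkch* and -0.020 for *Sphk1*.

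Values without 1 sample that changed sign ranged as follows. For GC in parental tumors they lay from -0.12 to 0.031 for *Prkca*, -0.31 to 0.054 for *Prkch* and -1.26 to 1.56 for *Prkcz*. For GC in GR KO tumors they lay from -0.019 to 0.31 for *Prkce* and -0.31 to 0.091 for *Prkch*. For the difference of GC effects in tumors they lay from -0.093 to 0.28 for *Prkcd*, -0.053 to 0.28 for *Prkce*, -0.20 to 0.21 for *Prkch* and -0.16 to 0.29 for *Sphk1*. For genotype in control tumors they lay from -0.28 to 0.10 for *Prkcd*, -0.30 to 0.029 for *Prkce* and -0.13 to 0.28 for *Prkch*. For genotype in GC-treated tumors they lay from -0.025 to 0.17 for *Prkch* and -0.17 to 0.14 for *Nr3c1*. For GC in GR KO cells they lay from -0.0091 to 0.17 for *Prkca*, -0.10 to 0.27 for *Prkcd*, -0.20 to 0.11 for *Prkce*, -1.55 to 0.68 for *Prkci* and -0.29 to 0.047 for *Nr3c1*.

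Counts over all genes that moved by more than 1.5 times were, for GC in parental tumors, 376 by DESeq2 against 124. For GC in GR KO tumors they were 1756 by DESeq2, 583 with a fold of 2 and 391 with these groups alone, against 1022. For the difference of GC effects they were 784 by DESeq2, 49 with no low-count filter, 66 with at least 10 counts in every sample and 144 with the block, against 31. For genotype they were 1001 by DESeq2, 238 with a fold of 2 and 159 with these groups alone, against 358, in control tumors, 293 by DESeq2 and 160 with the block, against 101, in GC-treated tumors, and 661 with at least 10 counts in every sample, against 1030, in DMSO cultures. In parental cells they were 251 by DESeq2, 63 with the block and 59 with these groups alone, against 110. Between tumors and cultures they were 4431 and 5081 with at least 10 counts in every sample, against 7595 and 8917. Without 1 sample the counts by edgeR ranged from 60 to 178, 303 to 2411, 0 to 1284, 61 to 1762, 40 to 114, 594 to 916 and 31 to 78 in the first 7 of these comparisons.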
